A study of Mus musculus with 6 samples.

Results

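The interferon regulatory factor (IRF) family was followed in mouse bone marrow cultures treated with midkine, through the 8 genes Irf1, Irf2, Irf3, Irf4, Irf5, Irf7, Irf8 and Irf9. The genes were taken by symbol, in a choice made with earlier results of these data known. All 8 were found among the 14912 gene symbols of the deposited table. Marrow of wild-type (WT) C57BL/6J mice was cultured with FLT3 ligand (50 ng/ml), on which dendritic cell progenitors depend, and fresh FLT3 ligand was given on day 7. Control cultures (3 samples) received nothing further. Midkine cultures (3 samples) were also given human recombinant midkine, a secreted cytokine that binds heparin, at 10 ng/ml for the final 2 days. RNA was read from the 3' ends of transcripts, so a gene's count is a count of transcript ends. Whether the samples of a group came from different mice or different dishes is not given in the labels. The p-values therefore rest on sample-to-sample spread that may be technical. The cultures were not sorted, and in such bulk samples fewer cells of a type and less RNA per cell cannot be told apart.

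IRF proteins share an amino-terminal DNA-binding domain with conserved tryptophans and bind repeats of the letters GAAA in the promoters of interferon and interferon-stimulated genes. IRF3 and IRF7 are switched on by phosphorylation downstream of nucleic acid sensors and induce type I interferon, and IRF9 is the DNA-binding part of the complex ISGF3 that answers it. IRF8 and IRF4 direct the development of dendritic cell subsets, with IRF8 needed for type 1 conventional dendritic cells and IRF4 used by type 2 cells. IRF5 drives inflammatory cytokine genes, and IRF1 and IRF2 act on shared sites as activator and antagonist.

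Reads per library ran from 5089338 to 5532055 in control and from 5685055 to 6453768 in midkine cultures, and 14649 to 14737 genes were seen in each. Values are normalised read counts, that is, reads divided by a size factor for each library. Genes with a mean of at least 10 (11844 genes) were tested with limma on log2(value + 1), and a gene was called at a Benjamini-Hochberg adjusted p under 0.05 over all of them. Mitochondrial ribosomal RNA took 9.33% to 9.86% of the reads in control and 18.1% to 20.9% in midkine libraries, and its part in the results was not tested. Scaling to total counts moved the median log2 fold change of all genes from -0.0086 to -0.27, and the share of higher genes among calls from 49.0% to 20.9%. With the ribosomal RNA rows left out of the totals that share was 38.9%.

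With midkine, 4 of the 8 IRF genes fell, none rose and 4 were not called. The genes that fell were Irf7, Irf9, Irf8 and Irf2, and the others were Irf1, Irf3, Irf4 and Irf5. Irf7 dropped to 10.9% of its control mean, Irf9 to 58.0%, Irf8 to 60.3% and Irf2 to 84.8%. Across all genes tested 42.7% were called, 21.8% lower and 20.9% higher. The groups did not overlap for 4 of the 8 IRF genes, all of them lower in midkine cultures, and for 51.3% of all genes (26.2% with midkine lower). A called fall of at least 2-fold was seen in 1 of the 8, Irf7, and in 3.84% of all genes. The median log2 fold change of the 8 was -0.14, beside -0.0086 over all genes. All 8 passed the minimum mean.

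**Figure D1:**
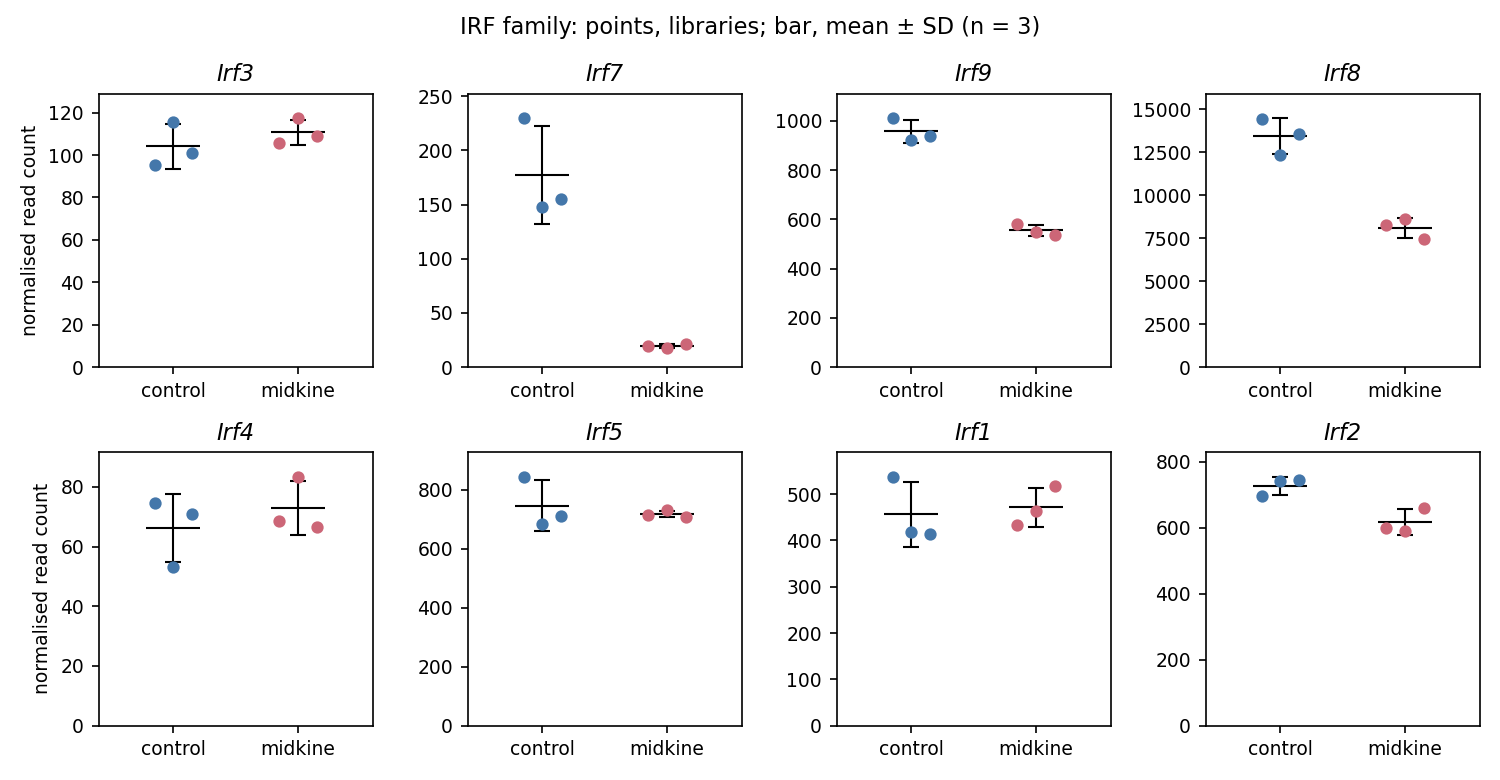
Normalised read counts (vertical axes, each from 0) of the 8 IRF genes in control and midkine cultures; points are libraries and bars give the mean ± SD (n = 3). Irf7, Irf9, Irf8 and Irf2 have midkine points below every control point, whereas the groups of Irf3, Irf4, Irf5 and Irf1 overlap.

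The start regions of the genes are shown because the IRF genes are themselves known targets of interferon signalling. For all 8 genes, 11 start regions of 300 bases (250 before to 50 after a start site) were taken from RefSeq on GRCm38.p6. They were searched on both strands for 4 motifs. The interferon-stimulated response element (ISRE) was written as GAAA, any 2 bases and GAAA, and the STAT site known as GAS as TTC, any 3 bases and GAA. The composite site of PU.1 and an IRF was written as GGAA, any 2 bases and GAAA, and the NF-kB site as GGG, any 3 bases and TTCC. Capitals mark the matches. Of the 11 regions 3 held a GAS match, against 8.30% of the 32851 start regions of this length, and those 3 belong to Irf1, Irf2 and Irf8. Among the 11 regions that of Irf2 alone held the ISRE (3.44% of all regions), the composite (2.72%) and the NF-kB letters (5.56%). Counted from the start site as 0, the composite match of Irf2 runs from -247 to -238 and overlaps its ISRE match, from -241 to -232. Irf8 carries its GAS matches at -171 to -163 and at -153 to -145, and Irf1 its match at -90 to -82. A match is a run of letters and not a bound site.
Irf7 (deepest fall, no match to these letters), chr7:141266375-141266674, minus strand: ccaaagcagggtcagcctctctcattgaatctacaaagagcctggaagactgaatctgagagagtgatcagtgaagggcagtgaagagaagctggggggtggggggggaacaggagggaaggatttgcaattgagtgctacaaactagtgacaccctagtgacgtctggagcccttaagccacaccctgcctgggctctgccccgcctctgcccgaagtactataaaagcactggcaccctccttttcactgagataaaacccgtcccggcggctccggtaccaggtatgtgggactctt
Irf8 (fell), chr8:120736108-120736407, plus strand: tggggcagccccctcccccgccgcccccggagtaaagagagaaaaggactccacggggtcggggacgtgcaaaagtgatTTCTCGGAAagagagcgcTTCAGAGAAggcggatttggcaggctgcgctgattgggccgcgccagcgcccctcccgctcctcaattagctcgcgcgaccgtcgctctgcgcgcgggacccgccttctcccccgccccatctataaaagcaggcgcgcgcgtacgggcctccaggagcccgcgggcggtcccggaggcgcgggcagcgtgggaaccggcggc
Irf2 (small fall), chr8:46739495-46739794, plus strand: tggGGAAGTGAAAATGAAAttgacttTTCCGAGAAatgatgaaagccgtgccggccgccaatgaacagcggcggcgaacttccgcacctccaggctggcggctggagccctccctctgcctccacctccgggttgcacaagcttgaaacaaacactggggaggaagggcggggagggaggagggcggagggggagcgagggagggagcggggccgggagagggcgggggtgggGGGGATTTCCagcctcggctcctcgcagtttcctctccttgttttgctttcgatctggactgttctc
Irf1 (not called), chr11:53769764-53770063, plus strand: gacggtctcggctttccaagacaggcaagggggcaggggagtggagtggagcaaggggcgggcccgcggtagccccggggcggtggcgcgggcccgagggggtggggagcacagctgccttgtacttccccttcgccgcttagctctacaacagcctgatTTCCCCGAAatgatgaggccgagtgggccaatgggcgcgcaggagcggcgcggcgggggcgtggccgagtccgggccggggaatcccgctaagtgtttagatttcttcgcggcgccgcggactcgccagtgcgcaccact
Irf8, which fell, and Irf1, which was not called, each hold a GAS match, whereas the regions of Irf7, Irf9, Irf3, Irf4 and Irf5 hold none of these letters. Both Irf9 regions, from 55603735 and from 55604329, begin inside the gene, which is annotated from 55603571. The bases before that annotated start were not searched. Irf1 and Irf8 each have another region, from 53770223 and from 120738389, which also begins inside the gene and holds no match. A lack of matches does not exclude a site outside these regions or one written with other letters. The start regions of the 8 genes ran from 52.7% GC in a region of Irf9 to 75.0% in a region of Irf1, where the median over all regions was 52.7%.

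Irf7, the factor that amplifies type I interferon production and is held at a high level in plasmacytoid dendritic cells, changed most. Control libraries held 230, 147 and 155 normalised reads of Irf7 and midkine libraries 19.2, 17.4 and 21.2. The lowest control value was far above the highest midkine value, and control replicate 1 stood above the other controls. The means were 177 ± 45.3 and 19.3 ± 1.89 (SD, n = 3 each), a log2 fold change of -3.11 (SE 0.19, 95% interval -3.50 to -2.73, limma adjusted p = 8.6e-13). Among all tested genes 0.194% had a lower log2 fold change. Behind these values lie 550 control and 57 midkine reads, so counting error alone gives a coefficient of variation of 22.9% for a midkine library, above the observed 9.81%. Without control replicate 1 the log2 fold change was -2.91. Irf7 lies on chromosome 7 from 141262706 to 141266481 of GRCm38, on the minus strand (ENSMUSG00000025498.15). Its exons share 45 bases with Phrf1 on the other strand, all within the last 500 bases of the gene, where 3' end reads fall, and Phrf1 had a log2 fold change of -0.22 and was not called.

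Irf3, the constitutively present partner of Irf7 in interferon induction, was not called. Its control values were 95.4, 116 and 101 and its midkine values 106, 117 and 109 normalised reads. The groups overlap and the means of 104 ± 10.5 and 111 ± 5.89 (SD, n = 3 each) differ by less than the control SD. The log2 fold change was 0.09 with a 95% interval from -0.19 to 0.37 (limma adjusted p = 0.620), which leaves room for a modest change in either direction. Within each library the log2 ratio of Irf7 to Irf3 was 0.74 ± 0.47 in control and -2.47 ± 0.19 in midkine cultures (mean ± SD, n = 3 each). Scaling between libraries acts on both genes of such a ratio alike, apart from the pseudocount of 1. The difference of -3.21 had an exact two-sided permutation p = 0.1, the smallest that 3 against 3 samples allow (adjusted p = 0.2 over 4 ratios). Irf3 lies on chromosome 7 from 44997648 to 45002848, and 88 of its exon bases are shared with Bcl2l12 on the other strand, none in its last 500.

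Irf9, the DNA-binding subunit of ISGF3, fell in every midkine library. Its control values were 1010, 924 and 939 and its midkine values 579, 550 and 536 normalised reads. The spread within each group was small beside the gap between them: the means were 957 ± 45.9 and 555 ± 22.2 (SD, n = 3 each), a 1.72-fold fall (log2 fold change -0.79, SE 0.08, 95% interval -0.95 to -0.62, limma adjusted p = 1.8e-08). Of all tested genes 6.57% had a lower log2 fold change. Irf9 lies on chromosome 14 from 55603571 to 55610030, with 123 exon bases shared with Rnf31 on the same strand, outside the last 500 bases of Irf9. Stat2, whose protein binds IRF9 in that complex, fell as well, from 377 ± 77.2 to 239 ± 14.1 normalised reads (log2 fold change -0.64, limma adjusted p = 8.5e-05).

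Irf8, the lineage factor of type 1 conventional and plasmacytoid dendritic cells, fell too. Its control values were 14413, 12364 and 13546 normalised reads and its midkine values 8240, 8622 and 7455. Every midkine library lay below the lowest control library by more than either group's SD. The means were 13441 ± 1028 and 8106 ± 595 (SD, n = 3 each), a 1.66-fold fall (log2 fold change -0.73, SE 0.08, 95% interval -0.90 to -0.56, limma adjusted p = 7.7e-08). With 41510 control and 24111 midkine reads, counting error comes to 0.850% and 1.12% of a library's value, beside replicate variation of 7.65% and 7.35%. Of all tested genes 7.56% had a lower log2 fold change. The intervals of Irf8 and Irf9 overlap each other, and neither reaches that of Irf7. Irf8 lies on chromosome 8 from 120736358 to 120756694.

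Irf4, which opposes and complements IRF8 in dendritic cell and B cell fate, was not called. Control libraries held 74.6, 53.2 and 70.9 normalised reads of Irf4 and midkine libraries 68.7, 83.4 and 66.6. The groups overlap, with means of 66.2 ± 11.5 and 72.9 ± 9.15 (SD, n = 3 each). The log2 fold change was 0.14 (95% interval -0.21 to 0.50, limma adjusted p = 0.529). It rests on 204 control and 218 midkine reads, and the control libraries varied by 17.3% where counting error alone gives 12.1%. The log2 ratio of Irf8 to Irf4 was 7.57, 7.83 and 7.56 in the control libraries and 6.88, 6.68 and 6.79 in the midkine libraries. All midkine ratios were below all control ratios, by -0.87 on average (exact two-sided permutation p = 0.1, the smallest possible; adjusted p = 0.2). Irf4 lies on chromosome 13 from 30749226 to 30766976.

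Irf5, which acts with MyD88 to switch on inflammatory cytokine genes, was not called. Its control values were 844, 685 and 711 and its midkine values 714, 730 and 709 normalised reads. Control replicate 1 stood above the rest and the groups overlap (747 ± 85.6 and 718 ± 11.01, SD, n = 3 each; log2 fold change -0.05, 95% interval -0.23 to 0.13, limma adjusted p = 0.675). With scaling to total counts the log2 fold change of Irf5 was -0.31 and called (limma adjusted p = 0.0072), which is -0.04 relative to the median of all genes under that scaling. Its exons share 411 bases with Tnpo3 on the other strand, 251 of them in the last 500 bases of Irf5, and Tnpo3 was not called either (log2 fold change -0.15). The log2 ratio of Irf5 to Irf4, whose proteins compete for MyD88, was 3.48 ± 0.18 in control and 3.29 ± 0.15 in midkine libraries, and the groups overlap (exact two-sided permutation p = 0.3, n = 3 each; adjusted p = 0.3). Irf5 lies on chromosome 6 from 29526625 to 29541871.

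Irf1, the activator induced by interferon gamma, was not called, and its antagonist Irf2 fell slightly. The control values of Irf1 were 537, 418 and 414 normalised reads and its midkine values 434, 463 and 518. All 3 midkine values lie within the control range (456 ± 70.2 and 471 ± 42.5, SD, n = 3 each; log2 fold change 0.05, 95% interval -0.16 to 0.27, limma adjusted p = 0.709). Irf2 had control values of 696, 741 and 744 normalised reads and midkine values of 598, 590 and 661. These groups do not overlap, but the gap between the nearest libraries is about the size of the SDs (727 ± 26.8 and 616 ± 38.7, n = 3 each). The log2 fold change of Irf2 was -0.24 (SE 0.08, 95% interval -0.41 to -0.07, limma adjusted p = 0.0232), and 30.0% of all tested genes had a lower one. The Irf2 call was lost in 6 of 18 alternative settings: without control replicate 2 (-0.22, limma adjusted p = 0.0761), without control replicate 3 (-0.22, 0.0869), without midkine replicate 1 (-0.22, 0.0680), without midkine replicate 2 (-0.21, 0.0665), with quantile normalization (-0.20, 0.0545) and without a variance trend (0.0944). The log2 ratio of Irf1 to Irf2 was -0.68 ± 0.27 in control and -0.39 ± 0.06 in midkine libraries with overlapping groups (exact two-sided permutation p = 0.2, n = 3 each; adjusted p = 0.267). Irf1 lies on chromosome 11 from 53770014 to 53778374 and Irf2 on chromosome 8 from 46739732 to 46847458.

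**Figure D2:**
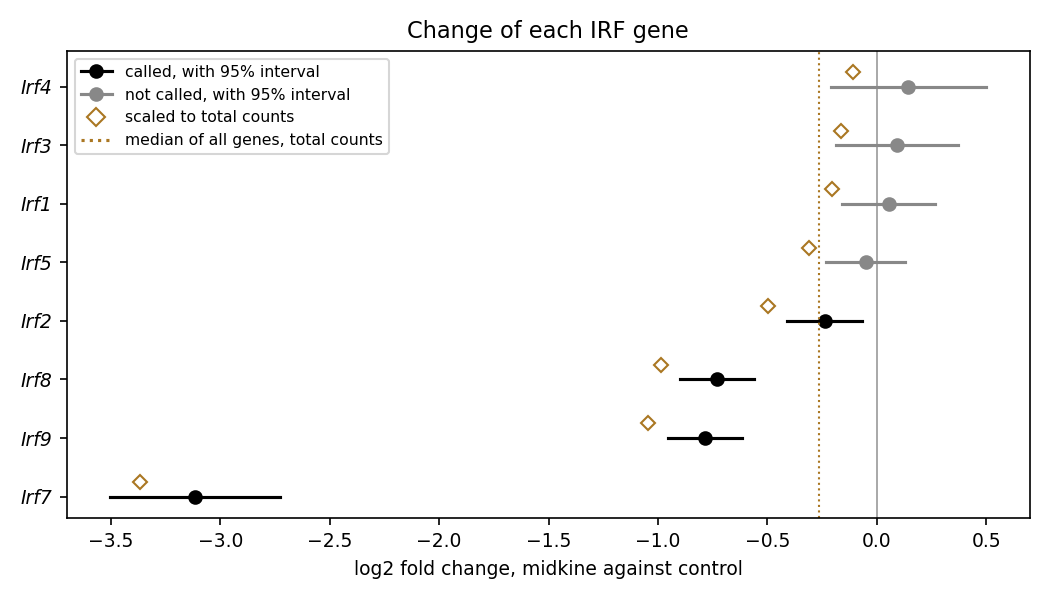
Log2 fold change of each IRF gene, midkine against control (horizontal axis), with 95% intervals from limma (circles, black where called), and the value after scaling to total counts (open diamonds; the dotted line is the median of all genes under that scaling, -0.27). Irf7 at -3.11 lies apart from the other genes, and total-count scaling moves each gene to the left by about the shift of all genes.

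**Figure D3:**
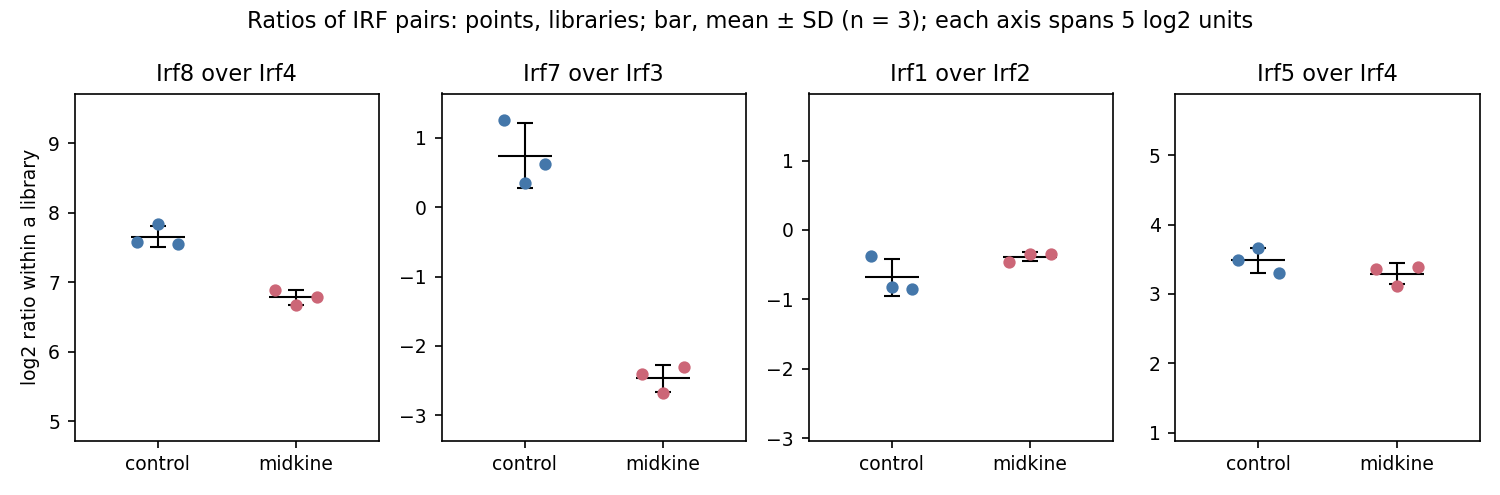
Log2 ratios of 4 pairs of IRF genes within each library (vertical axes, each spanning 5 log2 units) in control and midkine cultures, with the mean ± SD (n = 3). The ratios of Irf8 to Irf4 and of Irf7 to Irf3 are lower in all midkine libraries, and those of Irf1 to Irf2 and of Irf5 to Irf4 overlap.

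Genes that carry signals to the IRF proteins changed in both directions. Over all genes tested 21.8% fell and 20.9% rose, and with scaling to total counts 40.6% fell. Of 22 sensors, adaptors and kinases, 21 were tested, 11 fell, 3 rose and 7 were not called (median log2 fold change -0.39, beside -0.0086 over all genes; with scaling to total counts 14 fell and 1 rose, at -0.38 relative to all genes). On the endosomal route to IRF7 and IRF5, the RNA sensor Tlr7 fell from 116 ± 15.2 to 36.4 ± 6.61 normalised reads (log2 fold change -1.66). The Toll-like receptor chaperone Unc93b1 (-0.44), the adaptor Myd88 (-0.42) and the ubiquitin ligase Traf6 (-0.41) fell by less. The kinase genes Irak1 (0.03), Irak4 (0.01) and Chuk (0.05) of this route and the transporter Slc15a4 (0.13), needed for endosomal signalling in plasmacytoid cells, were not called. Tlr9 had 15 control and 7 midkine reads and was below the minimum mean.

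On the routes to IRF3, the sensor genes Tlr3, Cgas, Ddx58, Ifih1 and Dhx58 fell, and Irf3 itself was not called. The double-stranded RNA receptor Tlr3 fell from 1865 ± 212 to 761 ± 110 normalised reads (log2 fold change -1.30). The DNA sensor Cgas fell from 223 ± 17.4 to 96.1 ± 12.8 (-1.21) and Tmem173, which encodes its partner STING, from 604 ± 20.4 to 378 ± 14.1 (-0.67). The log2 fold changes of the RNA helicase genes were -0.46 for Ddx58, -0.39 for Ifih1 and -0.49 for Dhx58, and the mitochondrial adaptor Mavs (0.31) was not called. The IRF3 kinase gene Tbk1 fell by 0.32 on the log2 scale (limma adjusted p = 0.0300). Its inducible relative Ikbke ran the other way, from 19.5 ± 5.19 to 58.1 ± 6.90 normalised reads (log2 fold change 1.55, limma adjusted p = 7.1e-06), as did the adaptors Ticam1 (0.61) and Traf3 (0.52).

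Genes of interferon receptors and their signalling changed in both directions. The list is not limited to genes upstream of ISGF3, since it also holds interferon gamma receptor genes such as Ifngr2. Of 12 genes of interferon receptors, Janus kinases, STATs and their brakes, 4 fell and 3 rose (median 0.09), beside 21.8% and 20.9% of all genes tested. Besides Stat2, those that fell include the kinase gene Tyk2 (-0.23) and the brake Usp18 (-1.49), itself induced by interferon. The receptor genes Ifngr2 (0.56) and Ifnar2 (0.28) rose, and Ifnar1 (0.17), Jak1 (0.06) and Jak2 (0.11) were not called. Socs3, a brake on cytokine signalling, rose from 41.0 ± 4.65 to 111 ± 18.99 normalised reads (1.40), while Socs1 (-0.20) was not called. Total-count scaling left 2 rising and 4 falling (median 0.09 relative to all genes).

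Proteins that bind IRF factors were represented by 2 lists, both with changes in both directions, where 21.8% of all genes tested fell and 20.9% rose. Of 11 tested DNA-binding partners and coactivators 5 fell and 3 rose (median -0.0053; with scaling to total counts 6 and 2). Spib, the Ets factor of plasmacytoid cells that pairs with IRF proteins, fell from 408 ± 59.0 to 156 ± 22.8 normalised reads (log2 fold change -1.39), and Spi1, which encodes the general myeloid partner PU.1, fell by 0.28. Nfatc2 (-0.63), Crebbp (-0.27) and Batf3 (-0.34, with overlapping groups) also fell. The AP-1 genes Jun (0.95), Junb (0.82) and Jund (0.32) rose, whereas Batf (0.23), Tcf3 (-0.01) and Ep300 (0.04) were not called. Among 9 modulators 4 fell and 2 rose (median -0.18; with scaling to total counts 5 and 2). Both that rose belong to the IRF2-binding protein family, corepressors first described as partners of IRF2. Irf2bpl rose from 338 ± 18.8 to 815 ± 69.5 normalised reads (1.27, limma adjusted p = 2.1e-11) and Irf2bp2 from 1049 ± 45.9 to 2168 ± 240 (1.04, limma adjusted p = 1.7e-10), while the third relative, Irf2bp1, stood at 165 ± 19.5 and 176 ± 28.1 and was not called. The kinase gene Lyn, a brake on IRF5 (-0.53), Trim21 (-0.80, with overlapping groups), Rbck1 (-0.32) and Fkbp4 (-0.35) fell.

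Genes that IRF proteins are known to switch on were followed in 3 lists, beside 21.8% lower and 20.9% higher among all genes tested. Of 23 tested targets of ISGF3 and IRF3, 18 fell, Ifi44 alone rose (by 1.31) and 4 were not called, at a median of -1.47 (with scaling to total counts 19 fell and 1 rose). Ifit3 fell from 50.3 ± 6.96 to 5.15 ± 2.20 normalised reads (log2 fold change -3.12), and Rtp4 (-3.00), Cmpk2 (-2.66), Isg15 (-1.55), Mx1 (-1.47) and Bst2 (-1.08) fell as well. Ifit1, Ifit3 and Cmpk2, counted among the 18, passed the minimum mean only through their control values. Their falls are therefore no independent support. Usp18 is counted among the brakes too, and Bst2 among the plasmacytoid markers. Of the genes above, the sensor gene Tlr3 and the partner gene Batf3 are also counted among the type 1 conventional markers. Spib, a partner gene, is also counted among the plasmacytoid markers. None of the 16 type I and III interferon symbols searched for matched a row, so the interferon genes were not analysed here. Of 10 tested targets of IRF1, 3 rose, 2 fell and 5 were not called (median -0.06; on total counts 5 fell and 3 rose). Il12b, which encodes a subunit of interleukin 12, rose from 91.1 ± 29.7 to 431 ± 16.0 normalised reads (2.28), and Cd274, which encodes PD-L1, from 10.98 ± 0.995 to 71.6 ± 11.7 (2.59). Ptgs2, a prostaglandin synthase gene, rose from 1.599 ± 0.482 to 22.0 ± 2.81 (3.16). It had 5 control and 65 midkine reads and passed the minimum mean only through its midkine values, so its rise is no independent support. Nlrc5 (-0.67, with overlapping groups) and the peptide transporter gene Tap1 (-0.22) fell, and Gbp2 (-0.14), Psmb9 (0.06) and Ciita (-0.01) were not called. Of the cytokine targets of IRF5, Tnf rose from 27.3 ± 6.14 to 58.3 ± 9.68 (1.08) as did Il12b, while Il6 (4 and 29 reads) and Il12a (31 and 9 reads) were below the minimum mean.

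**Figure D4:**
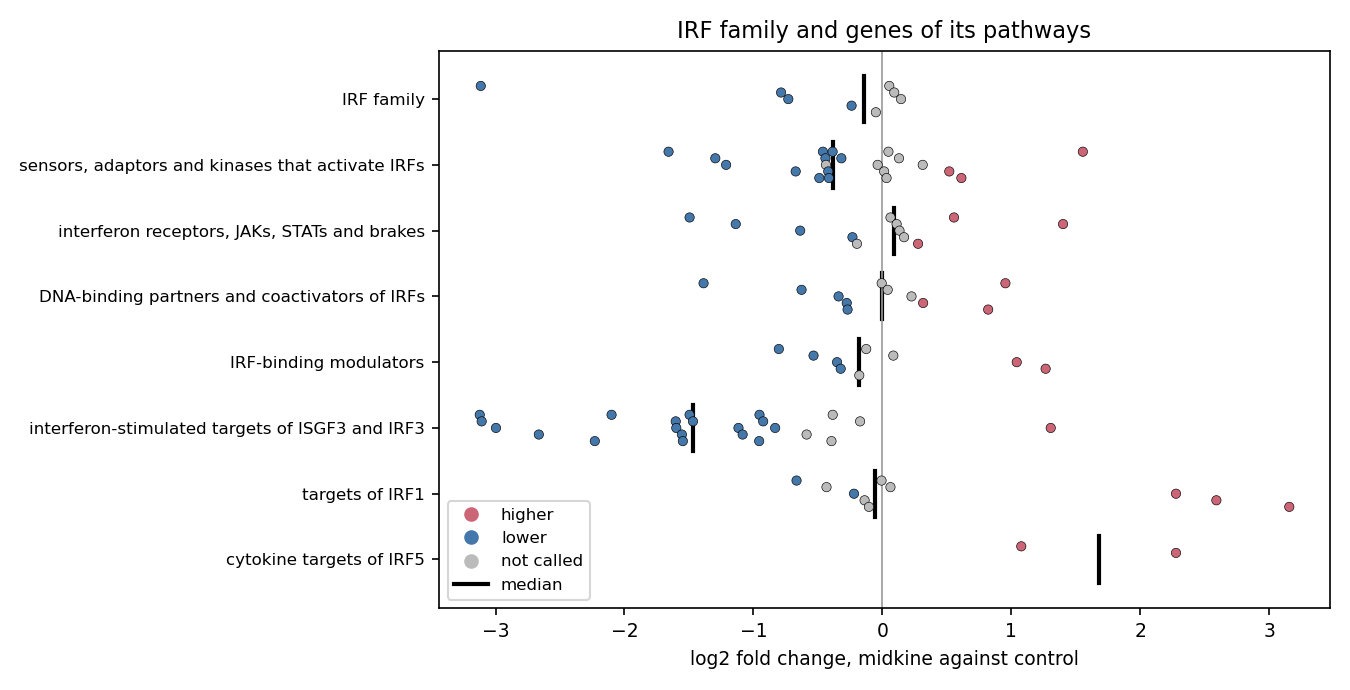
Log2 fold changes, midkine against control (horizontal axis), of the tested genes of 8 lists, the IRF family and genes of its pathways; each point is a gene, coloured by its limma call, and black bars are medians. The targets of ISGF3 and IRF3 lie mostly below 0 with a median of -1.47, whereas the receptors, partners and targets of IRF1 spread to both sides.

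Markers of the cell types that use these factors changed in both directions, and their part in the changes of the IRF genes was not tested. Among all genes tested 21.8% fell and 20.9% rose. Of 14 plasmacytoid dendritic cell markers, cells in which Irf7 and Irf8 are high, 11 fell and 1 rose, and their summed level was 7763 to 7897 normalised reads in control and 2632 to 2863 in midkine libraries. Siglech, their surface lectin, fell from 816 ± 36.3 to 102 ± 18.3 (log2 fold change -3.00) and Ccr9 from 571 ± 41.8 to 20.4 ± 4.82 (-4.77). Pacsin1, Upb1 and Cobll1, counted among the 11, passed the minimum mean only through their control values. Their falls are no independent support. Of 12 type 1 conventional markers, the cells that need IRF8, 9 fell and 2 rose, with sums of 31087 to 36618 and 27408 to 29582. Xcr1 (-1.58) and Naaa (-1.79) fell, while Itgae rose from 50.6 ± 12.1 to 143 ± 14.6 normalised reads (1.51). Id2 (0.26), the gene with the most reads in that sum, rose too. Its means were 17703 in control and 21210 in midkine libraries, where the sums had means of 33337 and 28452. Those sums therefore understate the fall of the markers that fell. With scaling to total counts 10 fell and 1 rose. Of 10 type 2 markers, the cells that use IRF4, 6 rose and 3 fell, with sums of 4812 to 4919 and 4919 to 5587, and total-count scaling gave 3 of each. Clec4a4, counted among the 6, passed the minimum mean only through its midkine values, so its rise is no independent support. Of 11 tested mature dendritic cell markers 8 rose and none fell, with sums of 1201 to 1450 and 2147 to 2483; Ccl17, below the minimum mean, was at 0 reads in all control libraries.

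Marker levels of other lineages that use IRF factors are given beside these, with the same shares over all genes tested (21.8% lower, 20.9% higher). The 11 monocyte and macrophage markers summed to 5025 to 5979 normalised reads in control and 5105 to 5315 in midkine libraries, and 3 rose and 4 fell. Neutrophil markers (8 genes, 4 of them tested) summed to 521 to 651 and 37.6 to 67.6, with 3 falling. Ly6c2 of the monocyte list and Ngp of the neutrophil list, both counted as falling, passed the minimum mean only through their control values. Their falls are no independent support. The 10 B and plasma cell markers, cells that use Irf4 and Irf8, summed to 370 to 390 and 359 to 468, and of 7 tested 1 rose and 1 fell. Of 7 T and natural killer cell markers only Cd3d and Nkg7 matched a row, with sums of 4.17 to 7.56 and 10.1 to 14.7. Ly6g and Elane of the neutrophil list were at 0 reads in all midkine libraries. Of 9 stromal markers 8 rose and Cxcl12 fell, and their sums were 16154 to 19735 and 47357 to 50259. Dendritic cell markers were read in all libraries, in a mixture that also holds stromal transcripts.

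**Figure D5:**
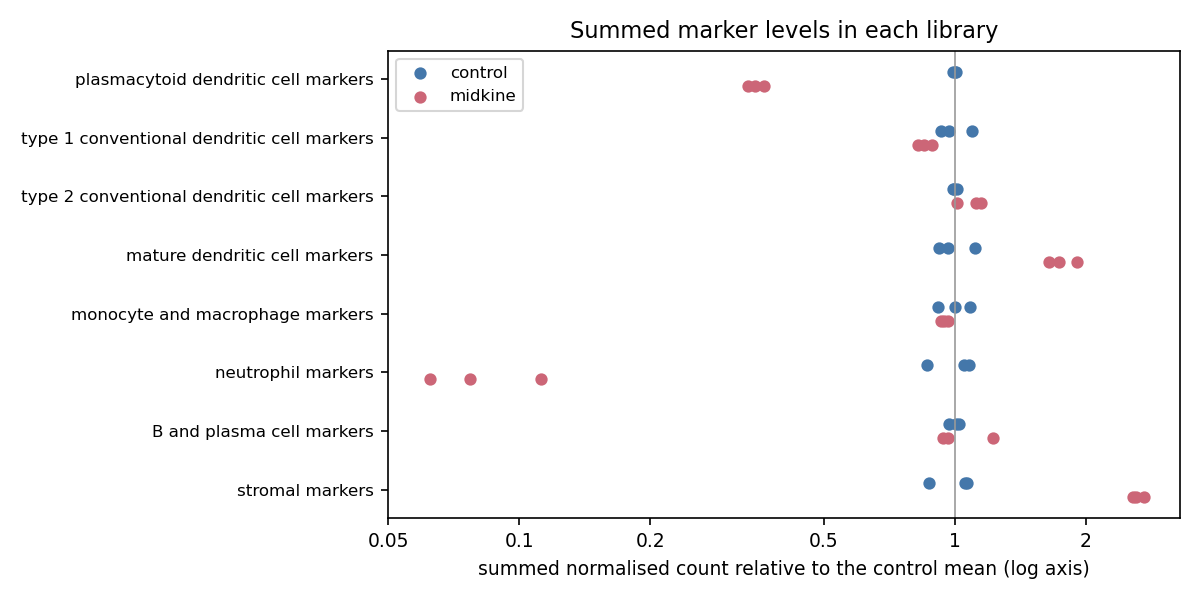
Summed normalised counts of marker lists in each library, divided by the mean of the control libraries (horizontal axis, log scale); points are libraries of the control and midkine groups, and the T and natural killer list, whose summed normalised count is at most 14.7 in a library, is left out. Plasmacytoid sums lie at 0.336 to 0.365 of control, neutrophil sums at 0.0624 to 0.112 and stromal sums at 2.57 to 2.72.

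The genes whose levels followed each IRF gene most closely were found by Pearson's r of log2(value + 1) over the 6 libraries among 10697 tested genes. The other IRF genes were left out of that search, as were symbols of predicted genes, clones, microRNAs and pseudogenes (Gm, Rik, Mir, -ps and similar names). These correlations describe 6 points in 2 treatment groups, and libraries of a group share their treatment. The genes were picked from the same values, so their calls largely follow from that choice and are no separate evidence. Irf7 was followed by Il6ra (0.9997), an interleukin 6 receptor gene, Atic (0.999) and Itgal (0.998), an integrin gene, and all 3 fell. Irf8 was followed by the antiviral gene Mx1 (0.999), Slc46a3 (0.999) and Daxx (0.999), with log2 fold changes of -1.47, -1.43 and -0.65. Among the genes that followed Irf9 were Marcks (0.9996) and Mospd1 (0.9996), which also fell. Irf2 was followed by Dph3 (0.998), Ilvbl (0.997) and Ank (0.996), of which Ilvbl was not called. The genes nearest to the uncalled members were uncalled too: Exosc4 (0.989), Rab5b and Rnf141 for Irf1, Cavin1 (0.9751), Spg7 and Zfp787 for Irf3, P2ry10b (0.980), Rbl2 and Ap1g2 for Irf4, and Sf3b1 (0.988), Nsd3 and Tmem168 for Irf5.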

How the data were processed

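RNA from 3 control and 3 midkine cultures was made into libraries of transcript 3' ends (QuantSeq, forward), per the labels' protocols. The deposited values are a signal: the reads of 14912 symbols over each library's size factor, as their steps show. Dividing a column by its smallest value above 0 gave whole reads; 100% of values were whole within 1e-06 reads. Tools named in the submitters' processing notes are DESeq2, HTSeq, SAMtools 0.1.19, Bowtie 1.0.0 and TopHat2 2.0.10, with GRCm38. Neither annotation nor strand setting is given, so reads of genes that overlap on opposite strands may not be separated. No molecular identifiers are named, so counting error is a lower bound.

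Genes with a mean of at least 10 (11844) were tested on log2(value + 1) in R 4.3.3 by limma 3.58.1 with a variance trend and adjusted by Benjamini-Hochberg; this scale understates changes of low genes. Lists are described by counts and medians. Groups came from titles. Replicates differed by more than counting noise (chi-square per degree of freedom 2.31 to 10.6). The alternatives were pseudocounts of 0.5 and 5, no filter and a mean of 50, TMM, total-count and quantile scaling, no trend, a replicate block, edgeR 4.0.16, DESeq2 1.42.0, leaving out each library and a threshold of 0.1 for the adjusted p. The members and lists were chosen with earlier results of these data known. By rule the text names the 8 members, the 3 genes most alike to each (predicted genes, clones, microRNAs and pseudogenes left out by symbol), and up to 4 called genes per list with the smallest p plus up to 2 that ran against the list; other list genes were named for their role after their values were seen, and a few genes are not reported here. The tests were tested on simulated data. Positions are from GENCODE vM21, sequences from RefSeq (GRCm38.p6). Python 3.11.15, SciPy 1.17.1 and matplotlib 3.10.9 were used.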

Additional observations from a re-analysis of the deposited data

How the results depend on the processing

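Irf7, Irf8 and Irf9 stayed called and lower in all 18 alternatives: their log2 fold changes ranged from -3.37 to -2.89, from -1.01 to -0.67 and from -1.04 to -0.75. edgeR and DESeq2 on recovered reads called the same 4 members (and 2606 higher and 2550 lower genes with edgeR, 2017 and 2047 with DESeq2), and no alternative called a member higher. Between 3 and 5 members were lower in each. Irf2 was not called with quantile normalization (-0.20) or without a variance trend (-0.24), and leaving out a library each time gave -0.29 to -0.21. On total counts 1277 genes were higher and 4823 lower; Irf5 was called (-0.31) and the sign turned for Irf1 (-0.20), Irf3 (-0.16) and Irf4 (-0.11), none of them called; without ribosomal RNA rows Irf1 was at -0.024. Leaving out a library gave -0.016 to 0.18 for Irf1, -0.0035 to 0.24 for Irf4, and -0.11 to 0.041 for Irf5, with no call in any; the cause of these shifts was not tested.

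Same-numbered control and midkine libraries did not deviate together (correlations -0.0097, 0.0286 and -0.0578), and not every library correlated best with its own number. With a replicate block 2519 genes were higher and 2641 lower, against 2481 and 2578, and the calls of the 8 members stayed as they were. For the ratios the block allows no exact p below 0.25. Counting error was largest for the midkine level of Irf7 (22.9% of a library's value) and for Irf4 (12.1% in control, 11.7% in midkine libraries).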
